A study of Brachypodium distachyon with 24 samples.

Results

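The gene blocks described here are the stretches of the Brachypodium distachyon genome in which the largest share of expressed genes had alleles of the accessions Bd21 and Bd3-1 that could be told apart in RNA-seq. Genes on chromosomes 1 to 5 with counts in more than 10 of the 24 libraries were sorted by identifier and divided into consecutive blocks of 50 genes on each chromosome. A gene was distinguishable if, in all 14 libraries of the parental accessions, its own allele had more than 1 count and the opposing allele held under 20% of the counts. Blocks with at least 35% distinguishable genes were kept. They were 50 of 456 blocks and held 2448 of 22636 genes in blocks, of 32439 genes measured. Of the 2448 genes, 1056 were distinguishable and 1392 were not. All 2448 passed the filter on low counts, because the blocks were built from genes that pass it.

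RNA was taken from leaf tissue, so fewer cells of a type and less RNA per cell cannot be told apart. The groups were Bd21 under control (3 plants) and drought (3 plants), Bd3-1 under control (5 plants) and drought (3 plants), and the F1 hybrid under control (5 plants) and drought (5 plants). From day 33 after sowing, control pots were held at 85% of field capacity, and drought pots were dried to 55% over 6 days. The F1 hybrid came from Bd21 pollen on emasculated Bd3-1 flowers, so every F1 plant had a Bd3-1 mother, and it was dried down in an experiment of its own. The methods name 3 parental plants of each accession and condition, whereas the labels list 5 Bd3-1 control plants, and the origin of the added plants was not given in the sources used here. The leaf label was checked with Bradi4g31257, a chlorophyll a-b binding protein gene with 802 to 5079 normalized counts in the 24 libraries, and Bradi1g55600, an early light-induced protein gene with 76.8 to 1048.

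Alleles can be told apart in RNA only where the transcript itself carries a variant. Closely related accessions share long stretches of near-identical sequence, broken by stretches in which variants are frequent, so genes with a readable variant tend to lie near each other. In an F1 hybrid both alleles sit in the same nuclei and meet the same regulatory proteins. A lasting difference between them is therefore read as cis-regulation, and a difference between the parents that the hybrid does not show as trans-regulation.

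The dense blocks were spread over all 5 chromosomes. There were 10 among 134 blocks on chromosome 1, 8 among 104 on chromosome 2, 13 among 101 on chromosome 3, 11 among 74 on chromosome 4 and 8 among 43 on chromosome 5. As a share of the blocks of a chromosome they ranged from 7.5% on chromosome 1 to 18.6% on chromosome 5. They formed 37 separate runs, of which 26 were single blocks, 9 had 2 adjacent blocks and 2 had 3 adjacent blocks. Both of the longest runs lay on chromosome 4. The first ran from Bradi4g24562 to Bradi4g26520 (64 of 150 genes distinguishable) and the other from Bradi4g42980 to Bradi4g44690 (68 of 150 genes). The densest pair of blocks lay on chromosome 3 between Bradi3g21565 and Bradi3g23040, where 56 of 100 genes were distinguishable. At chromosome ends lay 3 dense blocks, one that starts with Bradi3g00158 on chromosome 3 and those that end with Bradi4g45430 on chromosome 4 and Bradi5g28120 on chromosome 5. The last block of chromosome 4 held only 14 genes and that of chromosome 5 only 34.

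**Figure D1:**
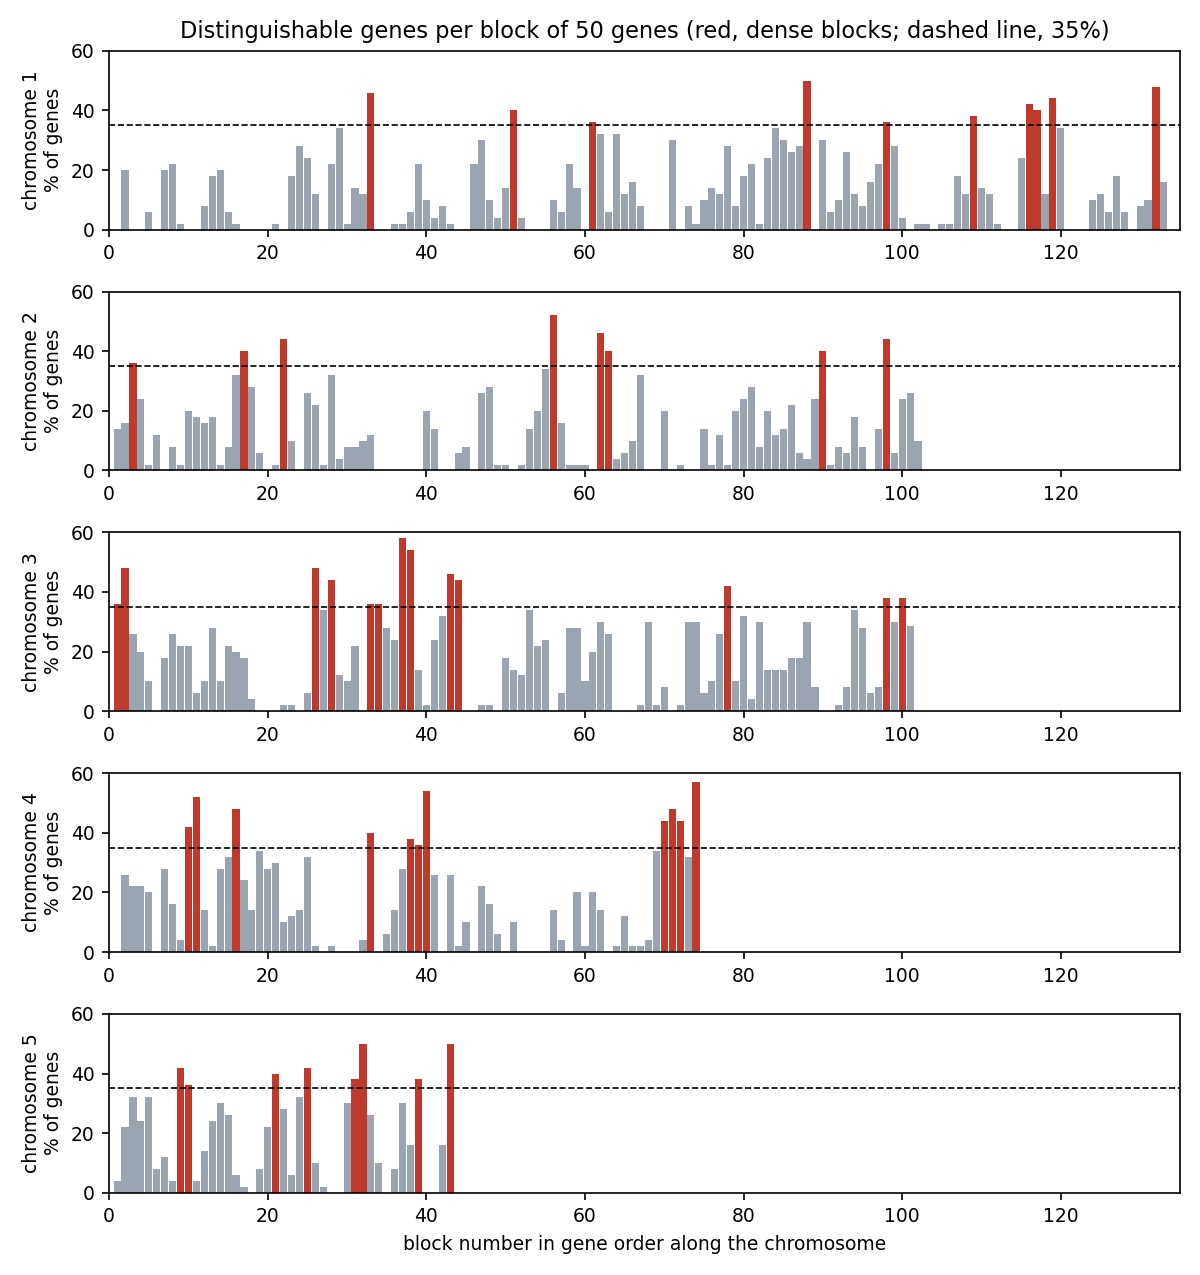
Percentage of distinguishable genes (y axis) in each block of 50 genes, in gene order along chromosomes 1 to 5 (x axis, block number). Red bars are the 50 dense blocks and the dashed line is the 35% limit. The dense blocks are spread over all chromosomes, and 26 of the 50 have no dense neighbour.

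These shares chose the blocks and are given as a description. The percentage of distinguishable genes was 36% to 58% in the dense blocks, with a median of 42%, and the median over all blocks was 12%. Just inside the limit were 8 blocks at 36%, and just outside it 9 blocks at 34%. At the other extreme, 94 blocks had no distinguishable gene. The percentage of a block had a Pearson correlation of 0.345 with that of the next block (451 adjacent pairs, which share their libraries). The 67 blocks that flanked a dense block had a median of 16%, with 19 of them under 10%, and the 339 blocks farther away had a median of 8%.

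The allele counts of the F1 hybrid were not part of the criterion, although the F1 libraries counted toward the filter on low counts. Where a transcript has no called variant, the authors' software divides its reads equally between the alleles, so unequal allele counts mark a gene with a readable variant. Variants were called from RNA of Bd3-1 plants, so equal counts can also come from too few Bd3-1 reads to call one. In the F1 libraries 2018 of the 2448 genes (82.4%) had unequal allele counts, against 33.6% of the 20188 genes in other blocks. All 1056 distinguishable genes had them, as genes chosen for a readable variant must, so part of that gap was set by the choice of blocks. Of the 1392 genes that missed the criterion, 962 (69%) also had them, against 24.8% of such genes elsewhere. By block, the percentage of genes with unequal F1 counts was between 62% and 100% in the dense blocks (median 83%), while the median of the other blocks was 30% and their highest value 94%. The ranges overlapped. Of the 1392 genes, 798 had an own-allele count of 1 or less in at least 1 parental library, and 311 missed the criterion only in the parental libraries with the fewest counts, Bd21 control replicate 1 and Bd21 drought replicate 2. Genes with equal allele counts in all 24 libraries made up 17.0% of the dense blocks (416 genes) and 64.8% of the other blocks.

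Expression levels of the distinguishable genes were high by construction, since the criterion bars genes with few counts in any parental library. The median normalized count, which is the estimated count divided by the relative effective library size, was 697 for the 1056 distinguishable genes (quartiles 331 and 1480) and 80.2 for the other 1392 genes of the dense blocks. Distinguishable genes of other blocks had a median of 716. Over all genes the dense blocks were close to the rest, with medians of 251 and 220. The dense blocks took 8.96% to 10.8% of a library's counts. Total counts per library ranged from 6905973 to 42354206. The 2 libraries named above had 8236476 and 6905973, and every other library at least 10607196.

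The first question was whether levels differed between the accessions in these blocks. Bd3-1 was compared with Bd21, averaged over control and drought, by edgeR's quasi-likelihood test fitted and adjusted over 22639 genes. Of the 2448 genes, 104 were higher in Bd3-1 and 187 lower at an adjusted P under 0.05, which is 291 genes or 11.9%. Over all genes tested the share was 4.74%, with 2.02% higher and 2.72% lower. The share was 11.9% in distinguishable genes and 11.9% in the other genes of the dense blocks, against 8.66% and 3.24% outside them. By level, genes of the dense blocks were called in 12.5% of genes under 100 normalized counts, 12.4% from 100 to 1000 and 9.52% from 1000 upward, and genes of other blocks in 3.91%, 3.99% and 3.48%. The median log2 difference was 0.03 in the dense blocks and 0.05 over all genes. In 161 of the 291 genes the libraries of the accessions did not overlap (175 genes of the dense blocks, 7.15%, and 2.72% of all genes, with or without a call). The blocks were chosen on the same parental libraries, so these counts describe them and were not tested against the other blocks.

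**Figure D2:**
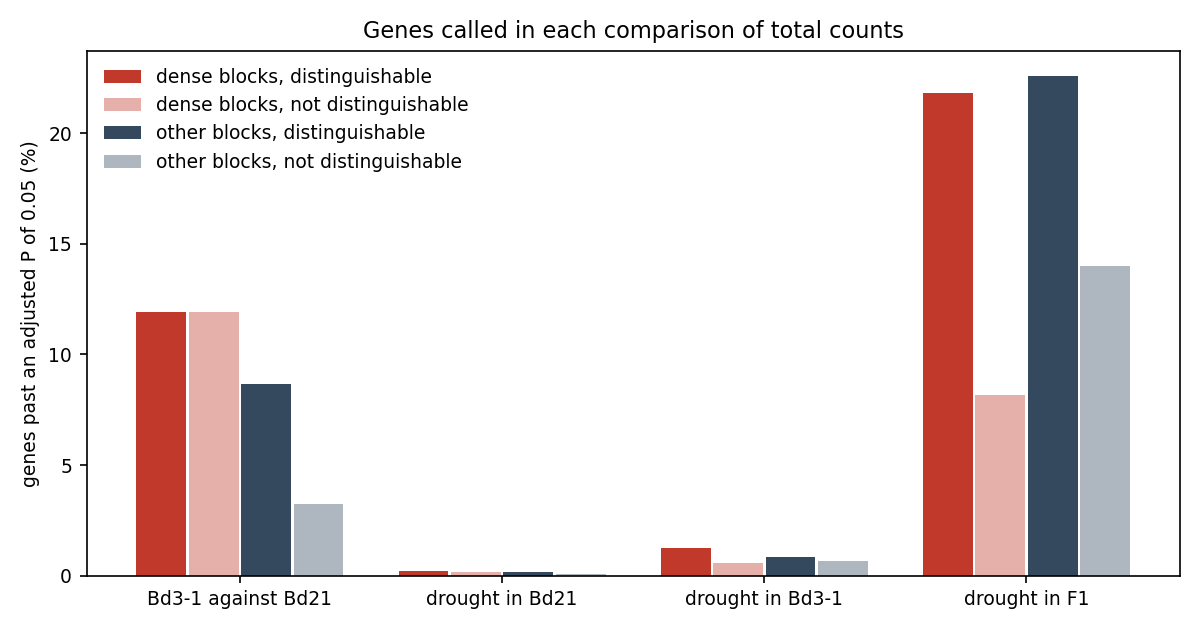
Percentage of genes past an adjusted P of 0.05 (y axis) in 4 comparisons of total counts (x axis), for distinguishable and other genes inside and outside the dense blocks. For Bd3-1 against Bd21 both kinds of gene in dense blocks stand at 11.9%, and for drought in the F1 the distinguishable genes inside and outside stand at 21.8% and 22.6%.

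The direction differed between kinds of gene. Among the 416 genes of dense blocks with equal allele counts in all libraries, 60 were lower in Bd3-1 and 2 higher, and the 62 calls were 14.9% of them. In other blocks 177 of 13074 such genes were lower and 106 higher (2.16% called). Without genes at 0 in every library of 1 accession, the calls were 35 of 389 genes (9%) in dense blocks and 1.77% in other blocks. Among the 2032 genes of dense blocks with unequal allele counts in at least 1 library, 127 were lower and 102 higher. All reads were aligned to transcript sequences made from the Bd21 genome and the variants found in Bd3-1. These variants were called from Bd3-1 RNA, so a gene with little of it may yield none and then has equal allele counts. The direction among genes with equal counts may thus be partly set by how they were sorted, which was not tested. The part of variant calling and alignment in the accession differences was not tested.

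Some genes were read in only 1 accession. A total of 38 genes of the dense blocks had no count in any library of an accession, while every library of the other had counts with a mean of at least 10. They were 1.55% of the 2448 genes, and 0.57% of all genes in blocks. Of the 38, 33 were at 0 in all 8 Bd3-1 libraries (1.35%, against 0.267% in other blocks) and 5 at 0 in all 6 Bd21 libraries (0.204%, against 0.183%). A distinguishable gene cannot be at 0 in a parental library, so all 38 belong to the genes that missed the criterion. They lay in 22 of the 50 dense blocks, with at most 4 in a block. The 3 blocks with 4 start at Bradi1g68060, Bradi2g01191 and Bradi2g39347. In the F1, the 33 genes had a median of 0.51 times the Bd21 mean (0.1 to 1.03), and the 5 genes a median of 0.47 times the Bd3-1 mean (0.15 to 0.58). Without the 38 genes, 253 of 2410 genes of the dense blocks (10.5%) remained called, against 3.43% in other blocks.

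Bradi5g17127 (chromosome 5) had the largest fitted fall in Bd3-1 among the genes open to naming. Its normalized counts were 3899, 5375 and 4660 in the Bd21 control plants, 2978, 4220 and 4561 in their drought counterparts, and 0 in all 8 Bd3-1 libraries. The F1 plants lay between 2138 and 6091 in control and between 845 and 3071 in drought, and 100% of their summed counts were assigned to the Bd21 allele. The F1 range thus reached into the Bd21 range, from which the Bd3-1 libraries were wholly separate. With a floor of 3 counts over the Bd3-1 libraries, the level was at least 12728-fold lower in Bd3-1 (adjusted P = 8.84e-13, edgeR).

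Bradi2g01450 (chromosome 2) repeated the pattern with equal allele counts. Since Bd3-1 had no counts of it, equal allele counts do not tell whether its sequences differ. Bd21 plants had 5519, 2974 and 2976 normalized counts in control and 1799, 792 and 2063 in drought, and Bd3-1 plants had none. F1 counts were between 1687 and 3911, so the F1 and Bd21 overlapped and Bd3-1 stood alone. The level was at least 7721-fold lower in Bd3-1 (adjusted P = 1.59e-13, edgeR).

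In the other direction, Bradi5g27695 had no counts in the 6 Bd21 libraries and 544, 439, 541, 559 and 546 in Bd3-1 control and 605, 379 and 547 in Bd3-1 drought. The 10 F1 plants had 246 ± 65.8 (SD), with a range of 156 to 354 that lay below every Bd3-1 library, and 14% of their counts were assigned to the Bd21 allele. In the 8 Bd3-1 plants, 27.7 ± 15.9 counts (SD) were assigned to that allele as well. Its level was at least 849-fold higher in Bd3-1 (adjusted P = 1.09e-13, edgeR).

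Bradi2g39410 likewise had none in Bd21 and between 190 and 374 in the 8 Bd3-1 libraries, at least 439-fold higher (adjusted P = 5.56e-11, edgeR). Its F1 counts were 39.0 to 216 and overlapped the lower Bd3-1 libraries. Of these F1 counts 12.1% were assigned to the Bd21 allele.

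The calls were not evenly spread over the dense blocks. Each dense block had at least 1 call, with a median of 5 and a highest value of 17, while 121 of the other 406 blocks had none and their median was 1. The other blocks reached higher, up to 20 calls. The block from Bradi2g01191 to Bradi2g01817 held 17 calls in 50 genes, of which 13 were lower in Bd3-1. Next came the adjacent blocks between Bradi2g38890 and Bradi2g39880, with 16 and 15 calls, of which 13 and 11 were lower in Bd3-1.

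The next question was how far the alleles differed within the F1. For the 1056 distinguishable genes, the log2 ratio of the Bd3-1 to the Bd21 allele in the F1 (mean normalized counts with a pseudocount of 1) had a median absolute value of 0.25, and 77 genes (7.29%) differed by more than 2-fold. Of the 77, 52 had more Bd21 allele and 25 more Bd3-1 allele. In distinguishable genes of other blocks the median was also 0.25, and 6.48% passed 2-fold. The same allele was higher in all 10 F1 plants in 95 genes (9.0%), against 7.8% elsewhere. Across the 1056 genes, which are not independent replicates and share their libraries, the F1 ratio and the parental ratio had a Pearson correlation of 0.7 and a Spearman correlation of 0.57. The ratios had the same sign in 723 genes (68.5%), against 66.5% of distinguishable genes of other blocks.

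**Figure D3:**
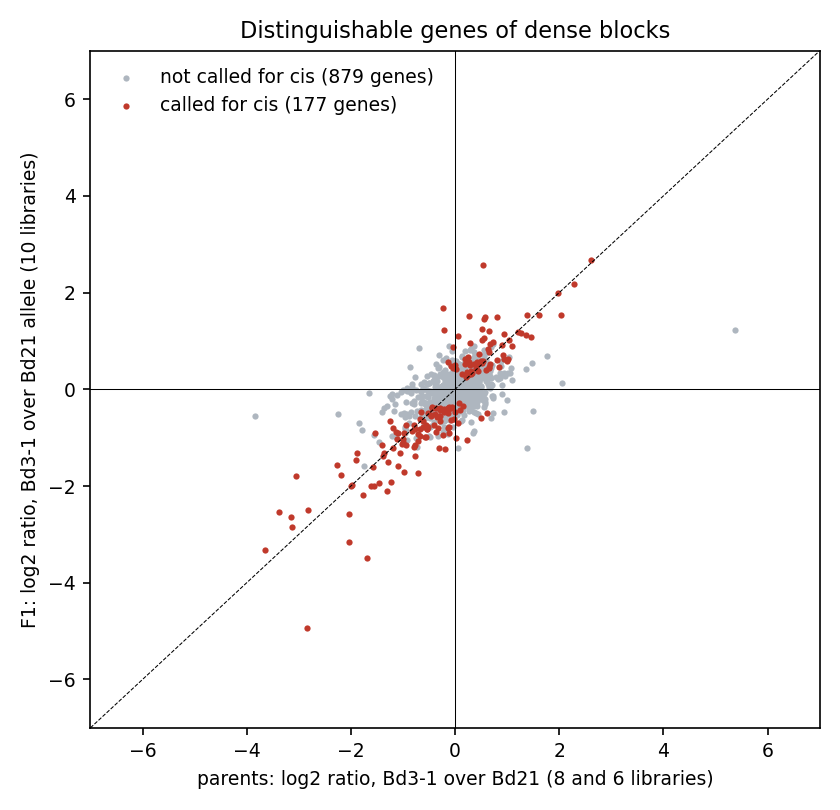
Log2 ratio of Bd3-1 to Bd21 in the parents (x axis, 8 and 6 libraries) and of the Bd3-1 to the Bd21 allele in the F1 (y axis, 10 libraries) for the 1056 distinguishable genes of dense blocks. The 177 genes called for cis (red) spread along the dashed line of equal ratios, and most grey genes lie near 0 on both axes.

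Cis-regulation was tested in one edgeR quasi-likelihood model over 34 allele columns, the own allele of the 14 parental libraries and both alleles of the 10 F1 libraries, for 3403 distinguishable genes. At the unadjusted P under 0.1 that the study used, 347 of the 1056 genes (32.9%) passed, where 31.6% of all genes tested did. At an adjusted P under 0.1, 177 genes (16.8%) were called, where the share over all genes was 16.2%. These shares are near the background and are no result about the dense blocks. The Bd21 allele was higher in 108 of the 177 genes and the Bd3-1 allele in 69, where 10% and 6.2% of all genes tested were so called. In 78 genes with at least 20 F1 counts the allele called higher was higher in every F1 plant, the Bd21 allele in 48 and the Bd3-1 allele in 30. Calls were found in 48 of the 50 dense blocks, with a median of 3 and at most 9, in the block from Bradi2g39347 to Bradi2g39880. Neither the 78 genes nor the 48 blocks were set against a count from other blocks, so they describe the members only. The alleles of an F1 plant entered this model as separate columns, without pairing by plant. With the plant as a block in the F1 libraries alone, 446 of all 3403 genes had an adjusted P under 0.1, against 552. Treatment entered centred in the main model. Coded as 0 and 1 it gave 80 adjusted calls among the 1056 genes and 267 among all 3403. In that setting the term is the difference in control alone.

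The parental calls and the cis calls overlapped. Of the 126 distinguishable genes called between the accessions, 82 were also called for cis (65.1% of the former and 46.3% of the latter), with the same direction in 81. The cis term is the allele difference within the F1, and parental libraries enter it only through the shared estimate of spread. The accession contrast is taken between the parents, with a spread estimated over all libraries. In the F1 alleles, which that contrast did not use, 123 of the 126 genes leaned the same way as the parents. These overlaps were not counted in other blocks.

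Bradi4g21710 (chromosome 4) had more of the Bd21 allele, with 90.7% of the F1 counts. Its Bd21 allele had 678, 1006, 1228, 1043 and 892 normalized counts in the F1 control plants, and its Bd3-1 allele had 132, 112, 149, 113 and 108. In F1 drought the Bd21 allele was between 1058 and 1657 and the Bd3-1 allele between 48.8 and 159. The alleles did not overlap in any condition, nor did the parents, at 2670 ± 389 (SD, n = 6) in Bd21 and 212 ± 43.1 (SD, n = 8) in Bd3-1. The cis term was -3.31 ± 0.17 (log2, SE; adjusted P = 2.57e-15, edgeR).

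Bradi4g44540, in the run that ends at Bradi4g44690, had 285 ± 62.5 (SD, n = 10) Bd21-allele counts and 8.34 ± 8.5 Bd3-1-allele counts in the F1. In 4 of the plants the Bd3-1 allele had no count. The parents were separate too, at 424 ± 163 (SD, n = 6) in Bd21 and 57.9 ± 27.2 (SD, n = 8) in Bd3-1. The cis term was -5.11 ± 0.54 (log2, SE; adjusted P = 4.75e-08, edgeR), a fitted value that depends on the near-absent Bd3-1 allele.

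Bradi4g43460, in the same run, showed the reverse. The Bd3-1 allele had 1419, 748, 1024, 2131 and 1722 normalized counts in F1 control and 681, 307, 1067, 407 and 360 in F1 drought. The Bd21 allele had 206, 166, 115, 401 and 269 in control and 119, 14.7, 92.3, 48.2 and 101 in drought. Within each plant and within each condition the Bd3-1 allele was higher without overlap. The mean of the Bd3-1 allele was 1409 ± 549 in control and 564 ± 316 in drought, and that of the Bd21 allele 231 ± 110 and 75 ± 42.6 (SD, n = 5), with some overlap between the conditions for each allele and for the total. The total fell by 1.36 on the log2 scale (SE 0.34, adjusted P = 0.00878, edgeR). The parents had 410 ± 188 (SD, n = 6) in Bd21 and 2499 ± 709 (SD, n = 8) in Bd3-1, and the cis term was 2.75 ± 0.31 (log2, SE; adjusted P = 1.48e-07, edgeR).

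Bradi2g09480 (chromosome 2) also had more of the Bd3-1 allele in all 10 F1 plants, 160 ± 54.0 (SD) against 34.7 ± 21.4. The ranges were 68.5 to 251 and 0 to 73 over all plants, overlapping slightly between plants but not within one. Its parents stood at 329 ± 49.2 (SD, n = 8) in Bd3-1 and 67.1 ± 54.6 (SD, n = 6) in Bd21, and the cis term was 2.31 ± 0.39 (log2, SE; adjusted P = 8.45e-05, edgeR).

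For trans, 107 of the 1056 genes (10.1%) passed an unadjusted P under 0.1, where the share over all genes was 11%. At an unadjusted P under 0.05 there were 51, with 197 among all 3403. None passed an adjusted P under 0.1 in edgeR, and DESeq2 called 2, with 24 among all 3403. Over all genes tested 0.353% were called, 0.235% higher and 0.118% lower. Generation and the separate dry-down of the F1 cannot be told apart in this term. A change of level that both alleles share enters the generation term of the model and not this one.

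A pair of genes stood far from the line of equal ratios, and they were picked after their values had been seen. Bradi5g21290 had 8.32 to 108 normalized counts in Bd21 and 759 to 2426 in Bd3-1, with no overlap, and was called between the accessions (log2 difference 5.46 ± 0.57, SE, adjusted P = 2.03e-07, edgeR). In the F1 its Bd21 allele held 0.0%, 3.4%, 0.3%, 82.2% and 0.0% of the counts in the control plants and 65%, 100%, 3.3%, 81.7% and 99.7% in the drought plants. Single plants of 1 group thus lay at opposite ends, and the cis term (1.09 ± 0.83, adjusted P = 0.461) and the trans term (4.62 ± 1.43, adjusted P = 0.335) were not called by edgeR. Bradi3g15040 had 816 to 12713 normalized counts in Bd21 and 18.0 to 743 in Bd3-1, also without overlap (log2 difference -3.89 ± 0.92, SE, adjusted P = 0.0103, edgeR). The call was lost without Bd21 drought replicate 1 (adjusted P = 0.069) and without Bd3-1 drought replicate 2 (adjusted P = 0.0515). Its F1 totals were 55.9 to 2977, and 59.5% of their sum was on the Bd21 allele.

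Summed over the 1056 genes, the share of F1 counts on the Bd21 allele was 51.1% ± 0.552 (SD, n = 10 plants). The control plants had 50.5%, 51.4%, 50.8%, 50.8% and 50.8%, and the drought plants 51.3%, 51.6%, 51.3%, 50.4% and 52.2%. All 10 were above 50%, and the conditions overlapped. Distinguishable genes of other blocks had 50.1% ± 0.233, with a range of 49.7% to 50.5%. The median over genes was 50.9% in the dense blocks and 50.5% elsewhere, a smaller gap than that of the sums.

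By block the share was between 46.7% and 58.3%, with a median of 50.45%, and 47 of the 50 blocks lay between 45% and 55%. In 6 blocks every F1 plant was above 50% and in 1 block every plant was below. The highest share was in the block from Bradi2g38890 to Bradi2g39339, at 58.3% ± 1.41 (SD, n = 10 plants), where 6 genes were called for cis and all 6 had more Bd21 allele. Its median gene had a log2 ratio of -0.34. The block from Bradi4g24562 to Bradi4g25130 followed with 58.1% ± 4.04, and there the single gene Bradi4g24650 held 56.3% of the counts. The lowest share, 46.7% ± 1.84, was in the adjacent block from Bradi4g25132 to Bradi4g25890, where Bradi4g25750 held 63.6% of the counts. Neighbouring dense blocks of 1 run therefore lay at opposite ends.

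**Figure D4:**
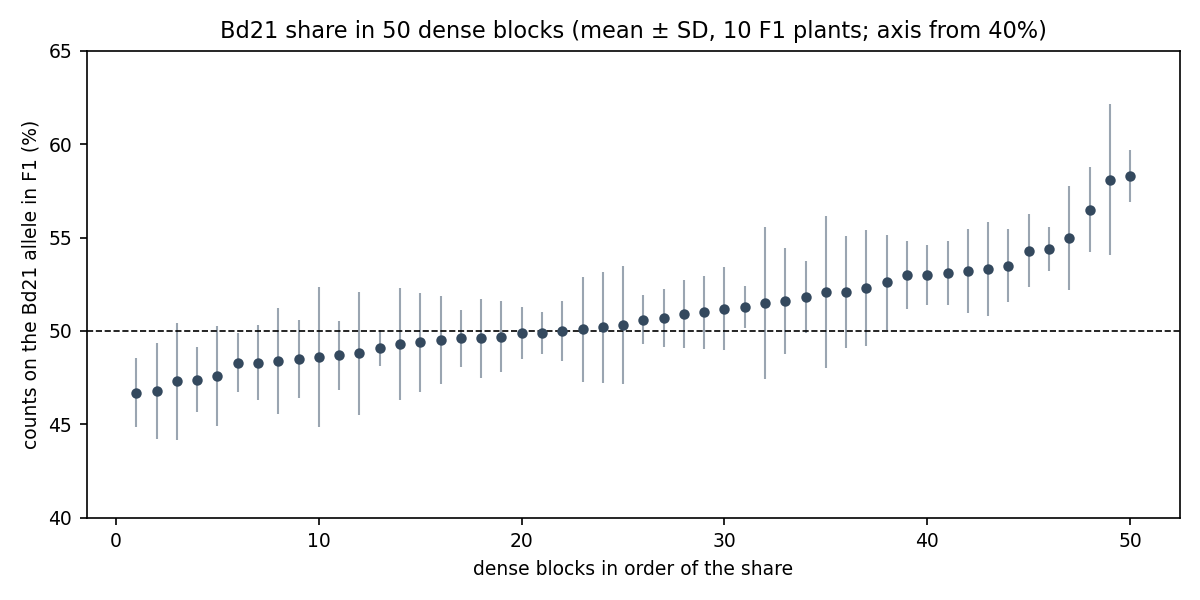
Share of counts on the Bd21 allele over the distinguishable genes of each dense block in the F1 (y axis, %, axis from 40%), as the mean and SD of 10 F1 plants, with blocks in order of the share (x axis). The dashed line is 50%. Most blocks lie within 45% to 55%, and the highest reaches 58.3%.

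Environment entered next. In the cis by environment term 127 of the 1056 genes (12.0%) passed an unadjusted P under 0.1, where 12.2% of all genes did. The only gene called at an adjusted P under 0.1 among all 3403 (0.0294%) was a member, Bradi2g36030, the last gene of the block that starts at Bradi2g35467. Its Bd3-1 allele had 19.5, 19.8, 28.0, 77.4 and 23.5 normalized counts in F1 control and 170, 154, 84.7, 136 and 89.5 in F1 drought. Its Bd21 allele had 616, 452, 553, 444 and 546 in control and 426, 384, 429, 422 and 303 in drought. The Bd3-1 allele was higher in every drought plant than in any control plant and the Bd21 allele lower, while the totals overlapped (556 ± 62.2 in control and 520 ± 77.6 in drought, SD, n = 5). Parental Bd3-1 had 89.6 ± 30.5 (SD, n = 5) in control and 138 ± 33.1 (SD, n = 3) in drought, and Bd21 746 ± 297 and 789 ± 78 (SD, n = 3). The cis by environment term was 2.33 ± 0.45 (log2, SE; adjusted P = 0.0427, edgeR). With the F1 plant as a block, since both alleles come from the same plant, it was 2.5 with an adjusted P of 0.593 and was no longer called. It was also lost in each of 5 fits that left out 1 F1 plant (F1 control replicates 1, 3 and 5 and F1 drought replicates 1 and 2), with adjusted P between 0.143 and 0.294. Its average cis term, -2.79 ± 0.23, had an adjusted P of 3.97e-10.

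The trans by environment term passed an unadjusted P under 0.1 in 51 genes (4.83%), with 5.41% over all genes. Under 0.05 there were 23 genes, with 76 among all 3403. At an adjusted P under 0.1, no gene was called by edgeR or DESeq2. For G × E between the parents in total counts, edgeR called 0 of the 2448 genes at an adjusted P under 0.1, as over all genes (0.0%). At an unadjusted P under 0.05 there were 102, with 769 among all 22639 genes tested. DESeq2 called 2 at an adjusted P under 0.1, with 8 among all 22639.

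**Figure D5:**
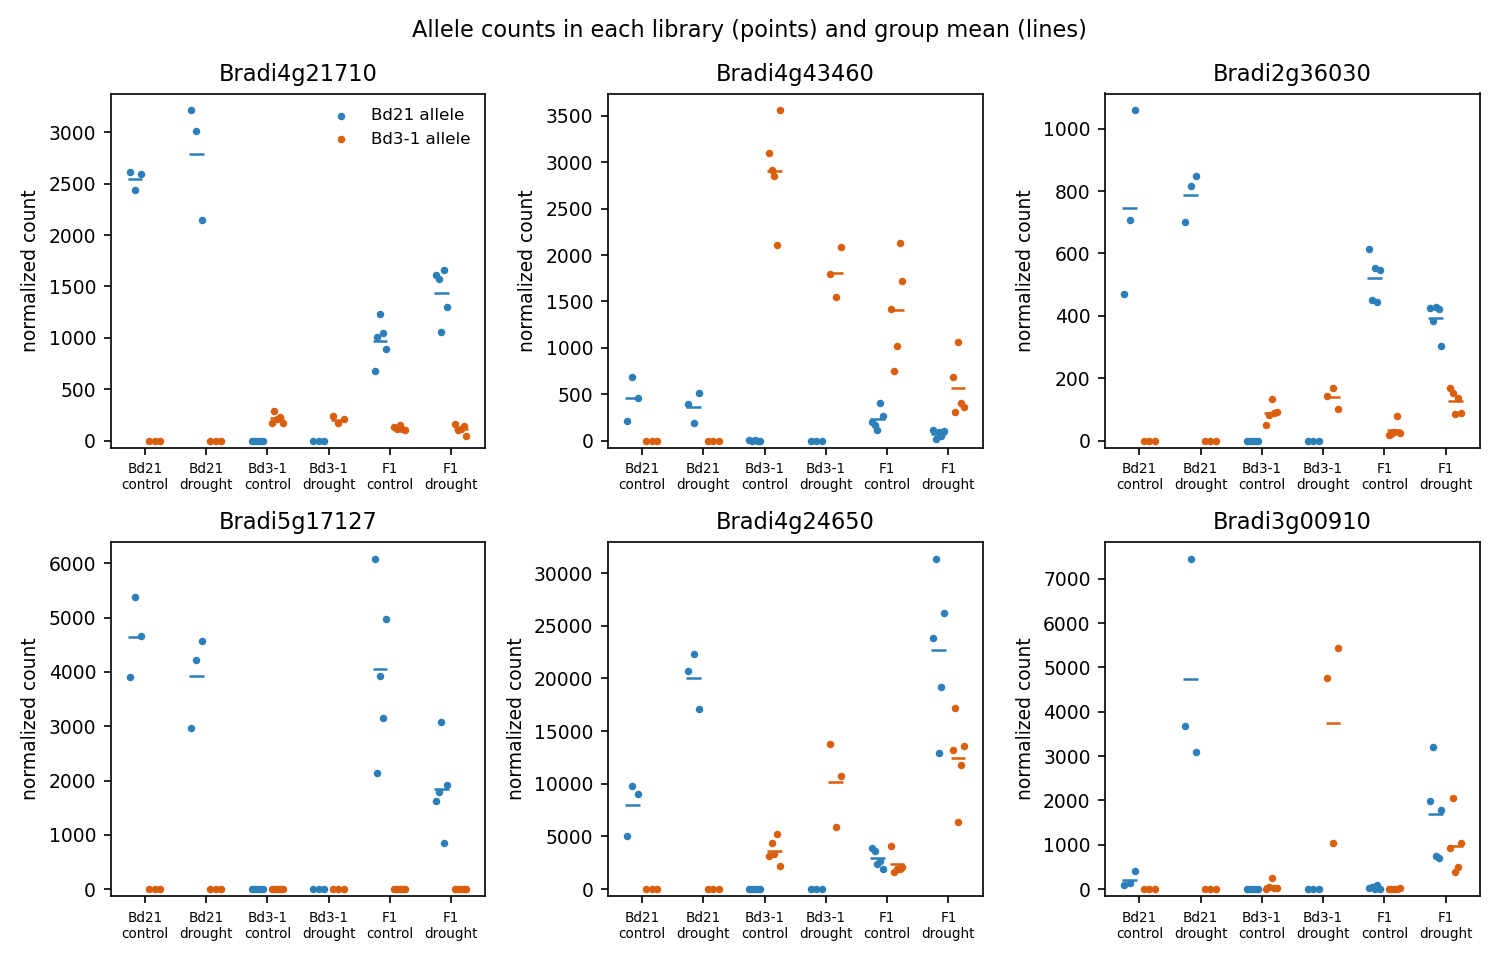
Normalized counts (y axis) of the Bd21 allele (blue) and the Bd3-1 allele (orange) of 6 genes in each library (points) and their group means (lines), by genotype and condition (x axis). Bradi4g21710, Bradi5g17127 and Bradi4g24650 have more Bd21 allele and Bradi4g43460 more Bd3-1 allele in the summed F1 counts. The Bd3-1 allele of Bradi2g36030 is higher in F1 drought, and both alleles of Bradi3g00910 are higher in drought.

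Drought responses were compared within each genotype with the same edgeR fit. In the F1, 178 of the 2448 genes rose and 166 fell, 14.1% in all, where 14.9% of all genes were called (7.58% higher, 7.31% lower). The distinguishable genes were called in 21.8% and those of other blocks in 22.6%, while the other genes of dense blocks reached 8.19%, and 14% elsewhere. In Bd3-1, 14 genes rose and 7 fell (0.858%, with 0.72% of all genes called, 0.433% higher and 0.287% lower), and in Bd21, 3 rose and 1 fell (0.163%, with 0.0972% of all genes called, 0.0751% higher and 0.0221% lower). These counts depended on single libraries. Without Bd21 control replicate 1, or without Bd21 control replicate 2, no member was called in Bd21. In Bd3-1, 5 were called without Bd3-1 drought replicate 1 and 35 without Bd3-1 control replicate 5. In the F1, 221 were called without F1 control replicate 1. Over all genes tested, the same fits called 2 and 2 in Bd21, 36 and 321 in Bd3-1 and 2147 in the F1. Fewer plants were sampled in the parents, and the F1 was dried down separately, so genotype and experiment cannot be told apart. The responses of the genotypes were not tested against each other.

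Bradi5g17170 was called in all 3 genotypes. It had 287, 212 and 261 normalized counts in Bd21 control and 2023, 2105 and 909 in drought. Bd3-1 had 211, 302, 592, 296 and 490 in control and 2549, 2347 and 1217 in drought, and the F1 had 354 to 519 in control and 3938 to 11965 in drought. Control and drought did not overlap in any genotype. Drought raised it by 2.73 ± 0.41 in Bd21 (adjusted P = 0.00565), 2.43 ± 0.34 in Bd3-1 (adjusted P = 0.000638) and 4.05 ± 0.34 in the F1 (adjusted P = 1.6e-07; log2, SE, edgeR). Its alleles were even, with 49.9% of the F1 counts on the Bd21 allele.

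Bradi4g44130, with equal allele counts throughout, was also called in all 3 genotypes. Its means rose from 452 ± 37.7 to 1250 ± 338 in Bd21 (SD, n = 3 and 3), from 588 ± 73.5 to 1312 ± 103 in Bd3-1 (n = 5 and 3) and from 525 ± 146 to 2259 ± 313 in the F1 (n = 5 and 5), without overlap. The log2 changes were 1.46 ± 0.23, 1.16 ± 0.19 and 2.11 ± 0.18 (SE), and the adjusted P were 0.0063, 0.00435 and 1.88e-07 (edgeR). Bradi5g15020 was the only other gene of the dense blocks called in all 3 genotypes. The Bd21 calls of Bradi5g17170 and Bradi4g44130 were lost without Bd21 control replicate 1 (adjusted P = 0.0588 and 0.0811) and without Bd21 control replicate 2 (0.0557 for both genes). That of Bradi4g44130 was also lost without Bd21 drought replicate 2 (adjusted P = 0.0716).

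Bradi3g00910, near the start of chromosome 3, had counts in every control plant. It had 89.8, 132 and 402 normalized counts in Bd21 control and 3677, 7458 and 3086 in drought, 9.82 to 253 in Bd3-1 control and 4768, 1038 and 5435 in drought, and 7.65 to 84.3 in F1 control and 1128 to 5251 in drought. The conditions did not overlap. The rise was 5.7 ± 0.82 in Bd3-1 (adjusted P = 0.000773) and 5.86 ± 0.8 in the F1 (adjusted P = 5.3e-05; log2, SE, edgeR), and 4.48 ± 0.95 in Bd21, which was not called (adjusted P = 0.054). Of its F1 counts 64.1% were on the Bd21 allele, which was the higher allele in 8 of 10 plants.

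Other members appeared in drought from a control level of 0. Bradi1g58580 had no count in the 5 F1 control plants and 78.9, 101, 146, 76 and 91.7 in F1 drought, at least 157-fold higher (adjusted P = 0.000974, edgeR). Bradi5g07910 had none in Bd3-1 control and 29.0, 43.2 and 27.5 in drought, at least 55.6-fold higher (adjusted P = 0.0487, edgeR), a call that 22 of 30 alternative fits did not keep. Bradi3g59410 went the other way in Bd21, from 121, 10.9 and 18.3 in control to 0 in all 3 drought plants, at least 29.9-fold lower (adjusted P = 0.0446, edgeR), and 15 of 31 alternative fits did not keep the call, with an adjusted P of 0.365 without the smallest libraries.

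Bradi5g21532 and Bradi2g39320 had the largest falls in the F1 among the genes open to naming. The former had 18857, 1076, 4062, 1981 and 9481 normalized counts in control and 123, 91, 795, 85.2 and 76 in drought, without overlap, and fell by 4.9 on the log2 scale (SE 0.92, adjusted P = 0.00119, edgeR). The latter was sparse, at 13.6 to 39.0 in control and 0 to 1.26 in drought, and fell by 5.97 (SE 1.5, adjusted P = 0.0106, edgeR). In Bd3-1, Bradi5g17080 had 46.1 to 277 in control and 5.28, 5.7 and 0 in drought, without overlap, and fell by 5.17 (SE 1.14, adjusted P = 0.0301, edgeR). The call was lost in 7 of 30 alternative fits, among them those without Bd3-1 control replicate 1 or 4 or any 1 of the Bd3-1 drought plants (adjusted P between 0.0765 and 0.172). Bradi1g68260 had 253 to 1739 in Bd3-1 control and 121, 143 and 145 in drought, and fell by 2.72 (SE 0.58, adjusted P = 0.025, edgeR). That call was lost in 7 of 31 alternative fits, for the same left-out libraries (adjusted P between 0.0682 and 0.172). It also fell in the F1, by 3.02 (SE 0.48, adjusted P = 0.000278).

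In all, 9 genes that the study names by function lay in dense blocks. The one with the most calls was Bradi4g24650, an ortholog of the rice gene ASR5, which is drought-related. It had 5093, 9842 and 9013 normalized counts in Bd21 control and 20719, 22321 and 17094 in drought. Bd3-1 had 3187, 4413, 3374, 5236 and 2172 in control and 13795, 5956 and 10792 in drought, and the F1 had 4032 to 8042 in control and 19356 to 48550 in drought. Drought libraries were above control libraries in each genotype, with no overlap. The rise was 1.33 ± 0.36 in Bd21, which was not called (adjusted P = 0.201). It was called in Bd3-1 (1.47 ± 0.31, adjusted P = 0.024) and the F1 (2.74 ± 0.29, adjusted P = 2.82e-06; log2, SE, edgeR). Its level was lower in Bd3-1 by 1.05 ± 0.24 (adjusted P = 0.00711), and the cis term was -0.59 ± 0.21 (adjusted P = 0.0659, both edgeR). The Bd3-1 drought call was lost without Bd3-1 control replicate 1, Bd3-1 drought replicate 1 or Bd3-1 drought replicate 3 (adjusted P between 0.0754 and 0.212). The cis call was lost when any 1 of F1 control plants 2, 3 and 4 and F1 drought plants 1 and 5 was left out (adjusted P between 0.104 and 0.167), and at an adjusted P of 0.663 with treatment coded as 0 and 1. The Bd21 allele was higher in 8 of 10 F1 plants and held 63.4% of the summed counts, with 2915 ± 848 against 2352 ± 992 in control and 22712 ± 7016 against 12445 ± 3914 in drought (SD, n = 5). Its cis by environment term was not called (-0.56 ± 0.42, log2, SE; adjusted P = 0.913, edgeR).

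Of the NAC transcription factors, a plant family with many stress regulators, Bradi4g44000 was called for drought in the F1, from 1.7, 71.9, 10.4, 129 and 13 in control to 339, 352, 27.0, 559 and 355 in drought (log2 change 2.86 ± 0.87, SE, adjusted P = 0.0281, edgeR). Its groups overlapped in 1 drought plant, and the call was lost when any 1 of F1 control plants 1, 3 and 5 and F1 drought plants 2 and 4 was left out (adjusted P between 0.0503 and 0.0778). Bradi3g59380, the other NAC gene, had 0 to 16 normalized counts in Bd21 and 0 to 231 in Bd3-1 (adjusted P = 0.138). Bradi3g00920, a leucine-rich repeat protein gene next to Bradi3g00910, had 69, 0, 76.7, 41.6 and 70.6 in F1 control and 188, 347, 69.6, 152 and 219 in drought (log2 change 1.92 ± 0.64, SE, adjusted P = 0.0464, edgeR), a call that 20 of 31 alternative fits did not keep. Its groups overlapped, its G × E between the parents was 0.44 ± 1.07 (adjusted P = 1.0), and it was not distinguishable by the criterion. The cis terms were therefore not fitted to it. The Bd21 allele held 66.8% of its summed F1 counts and was higher in 6 plants, the Bd3-1 allele in 3. In its larger experiment the study found the strongest G × E in this gene, and from F1 alleles it reports cis-regulation under drought.

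The remaining named genes had no call in the comparisons of total counts or alleles. Bradi1g18650, a glucanotransferase of primary metabolism, was distinguishable and split its F1 counts with 48.4% on the Bd21 allele, each allele being higher in 5 plants (cis 0.18 ± 0.28, adjusted P = 0.767). Bradi3g19730, a jacalin-like lectin gene, had 36% on the Bd21 allele (cis 1.27 ± 0.8, adjusted P = 0.358), with 1332 normalized counts in 1 drought plant and 9.1 to 191 in the other F1 plants. Bradi3g16515, an ortholog of the circadian clock gene LHY1, and Bradi5g14580, an endoglucanase gene, had equal allele counts in all libraries. Bradi1g64687, a MYB gene whose ortholog acts in flavonol synthesis, had 23 to 438 over all libraries, and its drought rise of 1.54 ± 0.64 in the F1 had an adjusted P of 0.112 (edgeR).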

How the data were processed

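The authors trimmed paired reads of stranded poly(A) libraries, called Bd3-1 variants against the Bd21 v3.2 genome with STAR and GATK, and aligned all reads with bowtie to a diploid transcriptome made by g2gtools and emase. They deposited estimated counts from emase, not normalized, as 48 columns, 1 per allele and library. The submitters' processing notes name Trimmomatic 0.38, cutadapt 3.7, Bowtie 1.2.2, STAR 2.6.1b and GATK 4.2.5.0. Reads of genes with near-identical copies are divided by emase, so such counts are uncertain.

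The unequal-count rule took a difference above 0.01 counts. Counts were rounded and tested in edgeR 4.0.16 (TMM factors, quasi-likelihood test, R 4.3.3) with 1 coefficient for each of 6 groups, over the 22639 genes with totals above 0 in more than 10 libraries, 3 of them on scaffolds. Adjustment followed Benjamini and Hochberg. Alternatives used DESeq2 1.42.0, other factors and filters, replicate and plant blocks, left-out libraries and other block rules. Tables and figures used Python 3.11.15, pandas 2.3.3, numpy 2.4.6 and matplotlib 3.10.9. The fits were tested on simulated data with 200 genes changed by 2 on the log2 scale. All genes had the same spread, which was set and not estimated from these data, so recovery in the real data may differ. The fits recovered 53% of the changes for G × E, where 10.2% of calls were false. Recovery was 85% for drought in Bd21 and 94% or more in the other comparisons simulated. The labels mark replicates as separate plants of a group. Replicates were compared in 39 pairs over the 2448 genes, and no pair was as close as sampling noise (lowest chi-square 18.6 times its degrees of freedom).

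The members and gene lists were chosen with earlier results of these data known. Named genes were at most 2 in each direction for a comparison, those with the largest log2 change past the threshold. They needed 10 or more normalized counts on average without overlap of the groups or, for cis, at least 20 F1 counts with the same allele higher in all 10 plants. Genes that the study names and genes at block ends were added, and a few others were picked after seeing values. Bradi5g15020 and Bradi4g25750 were picked so. Genes carry the identifiers of the file, since 0 of the 31335 genes of the RefSeq table shared one, and no coordinates, sequences or gene groups were used here.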

Additional observations from a re-analysis of the deposited data

Results flagged for a closer look

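Single libraries stood apart in 13 of 88 sets of 5 plants, tested over the named genes (Dixon's criterion at 95%, gap over range above 0.71). About 1 set in 20 would be marked by chance if the values were normally distributed. Normalized counts, many of them low or 0, need not be, so the number of sets marked was not judged against that rate. In F1 control, Bradi1g18650 had 2685 normalized counts in replicate 2 (next 1072), Bradi3g59380 had 36.4 in replicate 4 (next 10.4), Bradi5g07910 had 6.5 in replicate 3 (next 0) and Bradi5g27695 had 354 in replicate 5 (next 208). In F1 drought, Bradi2g39320 had 1.26 in replicate 1 (next 0), Bradi3g16515 had 828 in replicate 3 (next 248) and Bradi5g21532 had 795 in replicate 3 (next 123). Replicate 4 of F1 drought had 1332 for Bradi3g19730 (next 191) and 2977 for Bradi3g15040 (next 248). In Bd3-1 control, Bradi1g58580 had 11.3 in replicate 5 (next 0), and replicate 3 had 282 for Bradi1g64687 (next 83.4) and 253 for Bradi3g00910 (next 55.1). Bradi5g27695 was low in Bd3-1 control replicate 2, at 439 (next 541).

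The cis difference of Bradi2g36030 differed between drought and control in the F1, by 2.33 on the log2 scale. The difference was tested as an interaction, and it was lost with the plant as a block.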

How the results depend on the processing

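Of 44 calls of named genes, each followed through its alternatives, 0 turned direction and 17 were lost in at least 1. The accession calls stayed between 243 and 306 genes when 1 library was left out, and their share was above that of all genes in 31 of 31 settings (9.93% to 15.7% against 3.78% to 6.78%). Drought calls in Bd21 were 4, with 30 by DESeq2, 16 with only the groups compared, 1 without both smallest libraries (chosen after seeing the data) and 0 to 7 when 1 library was left out. Over all 22639 genes, DESeq2 called 220 and the fit of only the groups compared 114. In all 31 settings 0.0% to 1.23% of members were called, against 0.00883% to 0.972% of all genes. Drought calls in Bd3-1 were 21, with 76 by DESeq2, 5 with only the groups compared and 5 to 35 when 1 library was left out. Over all genes, DESeq2 called 726 and the fit of only the groups compared 52. The settings gave 0.204% to 3.1% of members, against 0.159% to 3.21% of all genes. In the F1 they were 221 to 422 when 1 library was left out. The settings gave 9.03% to 17.6% of members, against 9.48% to 18.5% of all genes. DESeq2 called 2 genes for G × E, 2 for trans and 2 for cis by environment, and leaving out 1 library gave 0 to 2 for trans and 0 to 2 for cis by environment. Over all genes, DESeq2 called 8 of 22639 for G × E, 24 of 3403 for trans and 4 of 3403 for cis by environment. Adjusted cis calls fell from 177 to 80 with treatment coded as 0 and 1, since the term then covers control alone, and were 153 to 191 when 1 library was left out. The cause of the other shifts was not tested.

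Which blocks were dense depended on the settings. Blocks of 25 genes gave 160 dense blocks with 3989 genes, blocks of 100 genes gave 16 with 1498, and a limit of 30% gave 87 with 4298. Without both smallest libraries there were 118 with 5819, and leaving out 1 parental library gave 50 to 74 with 2448 to 3619 genes, the most without Bd21 drought replicate 2.

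Replicate numbers did not pair the plants, since deviations of same-numbered libraries had a mean correlation of -0.006 over 51 pairs. With the replicate block, 253 genes were called for accession, and for drought 3 (Bd21), 8 (Bd3-1) and 310 (F1). Over all genes tested these calls were 895, 13, 83 and 2972. With the F1 plant as a block, the cis by environment calls were 0.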

Other observations

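Among the 1053 distinguishable genes of the dense blocks with at least 50 counts in 2 or more F1 plants, 47 (4.46%) had a plant with at least 90% of its counts on the Bd21 allele and another with at most 10%. In distinguishable genes of other blocks the share was 4.54%. Among the 676 genes of dense blocks that missed the criterion but had unequal F1 counts it was 19.7% (133 genes), and 18.1% elsewhere. Of the 47, Bradi5g21290 had the most plants at the ends, 2 with at least 90% and 5 with at most 10%. Bradi2g01810, Bradi3g00550, Bradi4g08750, Bradi4g25917 and Bradi4g44227 had 2 plants at each end. These genes and limits were picked after the values had been seen, and no test was run.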
